A study of Mus musculus with 6 samples.

Results

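The transcripts of the m6A writer machinery were followed in bulk liver RNA from 6 mice, 3 of the genotype written Alkbh5flox/flox and 3 of the genotype written Alkbh5-HKO in the series text and Alkbh5-CKO in the sample labels. The set holds 9 genes, chosen by name as methyltransferases and their cofactors, out of 41838 genes in the deposited table. They are Mettl3, Mettl14, Mettl16, Wtap, Virma (listed under its older symbol 1110037F02Rik), Zc3h13, Rbm15, Rbm15b and Cbll1. Flox mice carry the floxed gene and serve as controls. The driver that deletes Alkbh5 in HKO mice, the cells in which it acts, as well as sex and fasting state, were not given in the sources used here. Livers came from mice described as 9 weeks old in the series text and as kept on chow for 9 weeks in the protocol. Each library is described as an independent biological replicate.

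N6-methyladenosine, or m6A, is a methyl mark on adenosines inside messenger RNA. METTL3 carries out the methyl transfer and METTL14, its inactive partner, holds the RNA. WTAP brings this pair to nuclear speckles, and VIRMA, ZC3H13, RBM15, RBM15B and the ubiquitin ligase homolog CBLL1 (also called HAKAI) join it in a regulatory complex that steers where the mark is placed. METTL16 works apart from this complex on a few structured RNAs. ALKBH5, the enzyme targeted in these mice, removes the mark.

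Recovered depth was 14907384 to 17034754 reads per library. Alkbh5 checked the genotype labels, with a mean of 16.5 ± 1.56 FPKM (fragments per kilobase of gene, scaled to library size, SD, n = 3) for flox livers against 0.476 ± 0.0323 FPKM for HKO livers. HKO library 1 lay apart on the first principal component, at 38.6 against 15.7 and 4.51 for the other HKO libraries and -22.7 to -13.7 for flox. All 5 hepatocyte markers (Alb, Apoa1, Ttr, Serpina1a and Tat) were tested and present in each library, with summed levels of 41688 to 50944 FPKM in flox and 47304 to 49966 in HKO. Of these, 1 was higher and 4 were lower, and 0 passed limma after BH adjustment. Mean Alb was 28520 FPKM in flox and 36340 in HKO, and mean Apoa1 10720 and 6822. Alb lay all above flox and Apoa1 all below, as did 12.8% and 12.6% of tested genes. Summed erythroid markers ran from 352 to 674 FPKM in flox and from 105 to 209 in HKO, with 5 of 5 tested members lower. All 5 lay below flox in every HKO library, beside 12.6% of tested genes. All 5 also had an unadjusted limma p under 0.05, beside 8.44% of tested genes lower at that level. Hbb-bt alone of them passed limma after BH adjustment, as did 0.488% of tested genes. Summed stellate cell markers ran from 29.5 to 53.0 and from 54.7 to 63.3 FPKM, with 6 of 7 tested members higher. Taken singly, the groups overlapped in each of these 7, and 0 had an unadjusted limma p under 0.05. T and NK cell markers ran from 1.55 to 2.19 and from 2.64 to 3.66 FPKM, with Cd8a, Ncr1, Trac and Cd2 at 0 in at least 1 library. Nkg7 was the 1 tested of 8 (log2 0.48) and did not pass after BH adjustment. Kupffer cell (103 to 162 and 107 to 193 FPKM) and sinusoidal endothelial markers (25.3 to 34.4 and 27.4 to 33.5) overlapped between the groups. Summed cholangiocyte markers did not, at 26.2 to 36.4 FPKM in flox and 20.7 to 23.3 in HKO, with Cftr at 0 in at least 1 library and Spp1 the 1 tested of 6 (log2 -0.50, limma BH adjusted p = 0.163). The part of these cell types in the writer values was not tested, and in whole liver fewer cells of a type and less RNA per cell cannot be told apart.

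All 9 writer transcripts were detected in all 6 livers at low levels. Group means lay between 0.914 and 4.14 FPKM, where the median tested gene had 6.31. No writer transcript passed the test for a change in HKO livers. The 10453 genes with a mean of at least 1 FPKM were tested with limma on log2(FPKM + 1), a scale that shrinks changes of genes this low, with Benjamini-Hochberg (BH) adjustment at 0.05. All 9 members passed that filter, Mettl16 by a narrow margin at a mean of 1.0 FPKM. Of the members 0 were called, against a background of 0.488% of tested genes. The 9 changes had a median log2 fold change of -0.12, HKO minus flox, with 7 members lower and 2 higher, beside a median of -0.02 over all tested genes. At an unadjusted limma p under 0.05 there was 1 lower member, Zc3h13, and 8.44% of tested genes were lower at that level. Zc3h13 was also the 1 member whose HKO values were all under its flox values, a pattern found in 12.6% of tested genes. In 0 members were the HKO values all over the flox values, against 12.8% of tested genes.

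**Figure D1:**
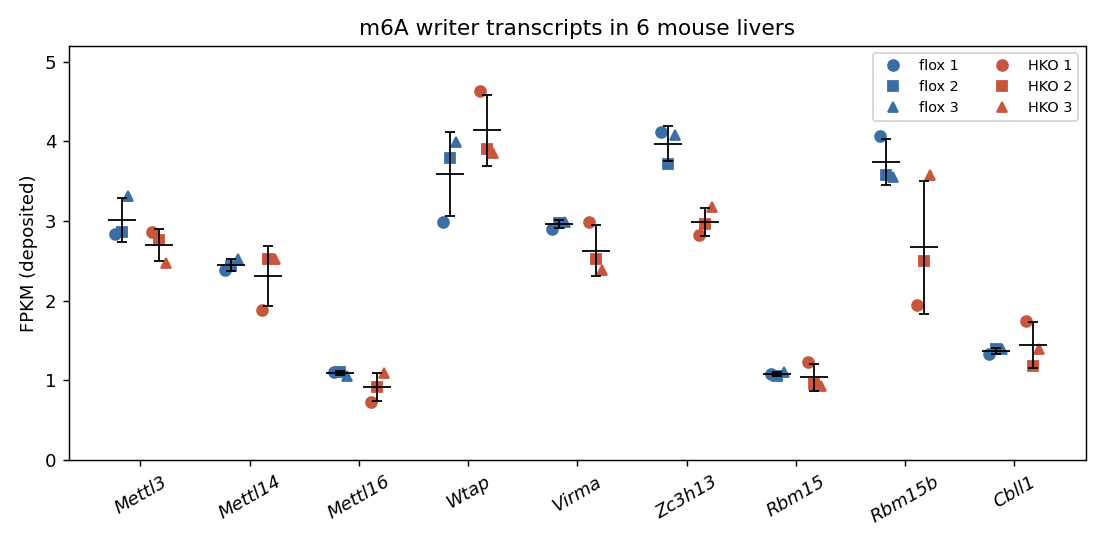
FPKM of the 9 writer transcripts (y axis) in each library, flox in blue and HKO in red, with circles, squares and triangles for libraries 1, 2 and 3. Horizontal ticks and bars are the group mean and SD (n = 3). The groups are apart in Zc3h13, at 3.72 to 4.12 in flox and 2.83 to 3.18 in HKO, and overlap in the other 8.

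Mettl3, the catalytic subunit (gene 56335, chromosome 14, 52294841 to 52305214, minus strand, GRCm38.p6), had values of 2.84, 2.86 and 3.32 FPKM in flox livers (libraries 1, 2 and 3, an order kept below) against 2.86, 2.76 and 2.47 in HKO livers. The groups overlapped through flox libraries 1 and 2 and HKO library 1, and the HKO mean was 89.7% of the flox mean. Its log2 fold change was -0.12 (SE 0.12, 95% interval -0.41 to 0.17, limma BH adjusted p = 0.658), and it was -0.06 without flox library 3 and -0.07 without HKO library 3. Each Mettl3 value rests on 136 to 200 reads. The 3' end of the gene model overlaps that of Tox4 on the other strand by 669 bases. Tox4 was at 7.83 ± 0.824 FPKM in flox and 6.37 ± 0.164 in HKO (SD, n = 3), and whether reads were assigned by strand was not given in the sources used here.

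Mettl14, the RNA-holding partner (gene 210529, chromosome 3, 123368295 to 123385990, minus strand), was at 2.38, 2.44 and 2.53 FPKM in flox and 1.88, 2.53 and 2.52 in HKO. HKO library 1 was the lowest of the 6, and HKO libraries 2 and 3 lay within the flox range. The log2 fold change was -0.07 (SE 0.13, 95% interval -0.38 to 0.25, limma BH adjusted p = 0.815), and it was 0.03 without HKO library 1, -0.12 without HKO library 2 and -0.11 without HKO library 3. On recovered reads, where no pseudocount shrinks the change, limma voom put HKO at 89.8% of flox for Mettl3 (95% interval 68.2% to 118%) and 93.5% for Mettl14 (66.5% to 131%). Changes of these sizes in either direction were thus not told apart from no change at 3 livers per group.

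Mettl16, which methylates the U6 small nuclear RNA and hairpins of Mat2a messenger RNA, had the lowest pooled mean of deposited FPKM, though it lay below Rbm15 in 3 of 6 libraries only (gene 67493, chromosome 11, 74770836 to 74826855, plus strand). It was at 1.10, 1.11 and 1.06 FPKM in flox and 0.733, 0.921 and 1.09 in HKO. Flox libraries sat close together, and HKO ran from far below them in library 1 to among them in library 3. The log2 fold change was -0.13 (SE 0.13, 95% interval -0.44 to 0.18, limma BH adjusted p = 0.638), and without HKO library 1 it was -0.06. On recovered reads HKO stood at 82.6% of flox (95% interval 61.0% to 112%, limma voom BH adjusted p = 0.486).

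The Mat2a transcript, which encodes a synthetase of the methyl donor S-adenosylmethionine, carries the target motif of METTL16, printed here because it links a writer to a measured RNA. The letters TACAGANAA, searched on the transcript strand of the longest coding transcript of each gene in GENCODE M21 (GRCm38), occurred 6 times in Mat2a, all in the 3' UTR on chromosome 6 between 72432938 and 72434263, minus strand. Of 21877 such transcripts 2197 held the motif at least once, none apart from Mat2a held it more than 4 times, and of the 9 writer transcripts 0 held it. Capitals mark the motif in each 29-base window, 5' to 3', in DNA letters.
site 1: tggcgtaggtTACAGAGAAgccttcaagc
site 2: ccttgtgataTACAGAGAAgtcacagggc
site 3: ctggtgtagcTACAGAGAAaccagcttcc
site 4: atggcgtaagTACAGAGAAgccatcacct
site 5: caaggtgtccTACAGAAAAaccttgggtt
site 6: gctggtgtggTACAGAGAAgccagcttgt

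Mat2a itself was at 2.87, 4.76 and 5.74 FPKM in flox and 2.80, 2.22 and 3.88 in HKO (log2 fold change -0.45, SE 0.24, limma BH adjusted p = 0.396). The groups overlapped, with flox library 1 beside the HKO values. Gene-level FPKM do not separate spliced from intron-holding Mat2a RNA.

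Wtap, the adaptor of the complex (gene 60532, chromosome 17, 12966799 to 12992624, minus strand), had the highest mean of the set by deposited FPKM pooled over both groups, and the highest in HKO livers, while in flox livers Zc3h13 and Rbm15b had higher means. It was at 2.99, 3.79 and 3.99 FPKM in flox and 4.64, 3.91 and 3.85 in HKO. HKO library 1 was the highest and flox library 1 the lowest, and the other 4 libraries lay between 3.79 and 3.99. The log2 fold change was 0.17 (SE 0.14, 95% interval -0.17 to 0.50, limma BH adjusted p = 0.579), and it was 0.07 without flox library 1 and 0.10 without HKO library 1. On recovered reads HKO stood at 116% of flox (95% interval 88.7% to 151%).

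Virma, the large scaffold subunit listed as 1110037F02Rik (gene 66185, chromosome 4, 11485949 to 11551143, plus strand), was at 2.90, 2.98 and 2.99 FPKM in flox and 2.99, 2.53 and 2.39 in HKO. HKO libraries 2 and 3 lay below the flox range, and HKO library 1 matched its upper end. The log2 fold change was -0.13 (SE 0.12, 95% interval -0.41 to 0.16, limma BH adjusted p = 0.632), or 88.7% of flox on recovered reads (95% interval 69.9% to 113%). The log2 value was -0.195 without HKO library 1 and -0.0768 without HKO library 3.

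Zc3h13, a zinc finger protein that holds WTAP and its partners in the nucleus (gene 67302, chromosome 14, 75284305 to 75344433, plus strand), was at 4.12, 3.72 and 4.08 FPKM in flox and 2.83, 2.97 and 3.18 in HKO. Zc3h13 was lower in its highest HKO library than in its lowest flox library, and the HKO mean was 75.3% of the flox mean. The log2 fold change was -0.32 (SE 0.12, 95% interval -0.59 to -0.04, limma BH adjusted p = 0.233), so it did not pass over all tested genes. Before BH adjustment the limma p was 0.0282, and it was 0.0906 on TPM and 0.0930 on the sum of recovered reads. On recovered reads HKO stood at 75.2% of flox (95% interval 60.2% to 94%, limma voom BH adjusted p = 0.193). Without each library in turn the log2 value was -0.35 to -0.29, and before BH adjustment the limma p was 0.0823 without flox library 1, 0.0671 without flox library 3 and 0.0721 without HKO library 2.

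The sequences upstream of Zc3h13 and Wtap are shown because the ratio of these neighbours in the complex did not overlap between the groups. That ratio did not pass its test (exact two-sided permutation p = 0.1, the smallest possible, BH adjusted p = 0.3). Whether these sequences bear on the ratio was not tested. They come from RefSeq on GRCm38.p6, whose table matched 7 of the 9 members by gene number, with Mettl14 and Virma the others. The table lists 3 starts for Wtap and 2 for Zc3h13, of which 1 each is shown. Each is the 250 bases before a listed start, 5' to 3' along the gene, for Zc3h13 at chr14:75284116-75284365 (plus strand) and for Wtap at chr17:12992544-12992793 (minus strand). Capitals mark, on either strand, the letters CCAAT (bound by NF-Y), those of the SP1 box, GGGCGG, and those of the ETS family, spelled CCGGAAG.
Zc3h13: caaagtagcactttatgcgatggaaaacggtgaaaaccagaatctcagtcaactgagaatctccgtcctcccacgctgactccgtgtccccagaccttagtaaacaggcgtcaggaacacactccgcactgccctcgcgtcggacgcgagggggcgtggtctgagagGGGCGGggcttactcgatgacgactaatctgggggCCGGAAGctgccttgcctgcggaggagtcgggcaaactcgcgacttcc
Wtap: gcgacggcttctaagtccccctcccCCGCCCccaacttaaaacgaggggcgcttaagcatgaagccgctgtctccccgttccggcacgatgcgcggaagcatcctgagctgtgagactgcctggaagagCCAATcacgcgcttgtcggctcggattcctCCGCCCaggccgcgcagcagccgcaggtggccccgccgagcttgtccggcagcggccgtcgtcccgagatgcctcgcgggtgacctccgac

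Both windows are rich in CG dinucleotides, with 24 for Zc3h13 and 35 for Wtap over 300 bases (the 250 shown and the next 50), where the median of 32851 listed promoters was 7. CCGGAAG was found for Zc3h13, Mettl3 and Cbll1, and in 8.86% of all listed promoters. CCAAT was found for Rbm15, Mettl16 and 2 of the 3 Wtap starts (the other, with 48 CG dinucleotides, held none), and in 37.4% of all. GGGCGG was found for Zc3h13, Wtap, Rbm15, Rbm15b and Cbll1, and in 35.7% of all. These are matches of letters and not measured sites.

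Rbm15 and Rbm15b encode related RNA-binding proteins that bring the writer complex to its targets. Rbm15 (gene 229700, chromosome 3, 107305511 to 107334967, minus strand) was at 1.08, 1.05 and 1.10 FPKM in flox and 1.23, 0.954 and 0.930 in HKO, with HKO libraries on both sides of the flox range. Its log2 fold change was -0.03 (SE 0.13, 95% interval -0.33 to 0.27, limma BH adjusted p = 0.918), and it was -0.0983 without HKO library 1 and 0.00700 without HKO library 3. Rbm15b (gene 109095, chromosome 9, 106883985 to 106887000, minus strand) was at 4.07, 3.58 and 3.56 FPKM in flox and 1.95, 2.50 and 3.58 in HKO. HKO libraries 1 and 2 lay well below flox, and HKO library 3 lay inside the flox range. Its log2 fold change of -0.39 (SE 0.18, 95% interval -0.81 to 0.03, limma BH adjusted p = 0.328) was the largest of the set in size. Without HKO library 1 the value was -0.24, and without HKO library 3 it was -0.56 (limma BH adjusted p = 0.173). On recovered reads HKO stood at 69.1% of flox, a log2 change of -0.53 (95% interval -1.08 to 0.01).

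Cbll1 (gene 104836, chromosome 12, 31484829 to 31500543, minus strand) was at 1.33, 1.39 and 1.40 FPKM in flox and 1.75, 1.18 and 1.40 in HKO. HKO library 1 was the highest and HKO library 2 the lowest of the 6. The log2 fold change was 0.04 (SE 0.14, 95% interval -0.28 to 0.36, limma BH adjusted p = 0.911), and it was -0.05 without HKO library 1 and 0.12 without HKO library 2.

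**Figure D2:**
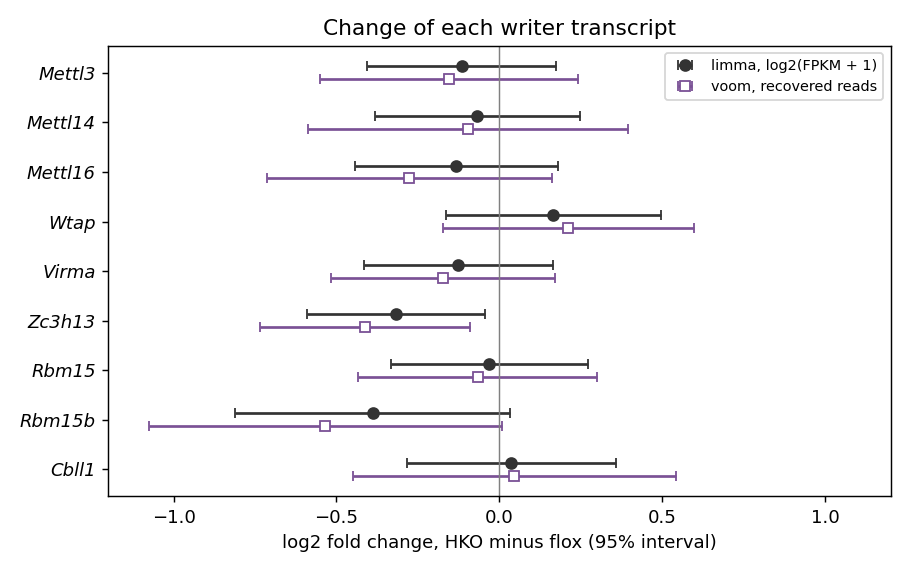
Log2 fold change of each writer transcript, HKO minus flox (x axis), with its 95% interval, from limma on log2(FPKM + 1) in filled circles and limma voom on recovered reads in open squares. The Zc3h13 interval lies below 0 in both fits, at -0.59 to -0.04 and -0.73 to -0.09, and the other 8 include 0 in both.

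Ratios between subunits inside 1 liver do not depend on how libraries are scaled. Of 6 ratios compared, 2 did not overlap between the groups, both with Wtap as the denominator. Among single tested genes 12.6% lay all below and 12.8% all above flox in HKO. No such share was computed for ratios, so these 2 have no background of their own. The ratio of Virma to Wtap was 0.970, 0.786 and 0.750 in flox and 0.643, 0.647 and 0.619 in HKO, all HKO livers below all flox livers. Its log2 values were -0.27 ± 0.20 in flox and -0.65 ± 0.03 in HKO (SD, n = 3, exact two-sided permutation p = 0.1, BH adjusted p = 0.3). Zc3h13 to Wtap was 1.38, 0.981 and 1.02 in flox and 0.609, 0.759 and 0.825 in HKO. Its log2 values were 0.16 ± 0.27 and -0.46 ± 0.23 (SD, n = 3, exact two-sided permutation p = 0.1, BH adjusted p = 0.3). With 3 livers against 3 the smallest p this test can give is 0.1, so no ratio could pass. The 2 ratios share Wtap, and flox library 1, with the lowest Wtap value, had the highest ratio in both. Without it the log2 differences were -0.27 for Virma and -0.47 for Zc3h13, against -0.38 and -0.62 with all libraries.

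Mettl3 to Mettl14, the ratio within the catalytic pair, was 1.19, 1.17 and 1.31 in flox and 1.52, 1.09 and 0.982 in HKO (exact permutation p = 0.8, n = 3 per group). HKO livers lay on both sides of flox. Rbm15 to Rbm15b was 0.264, 0.295 and 0.310 in flox and 0.633, 0.382 and 0.259 in HKO (exact permutation p = 0.4, n = 3 per group). Here HKO library 1 stood highest and HKO library 3 lowest. Mettl16 to Mettl3 (exact permutation p = 0.7) and Cbll1 to Wtap (exact permutation p = 0.5) overlapped as well, n = 3 per group.

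**Figure D3:**
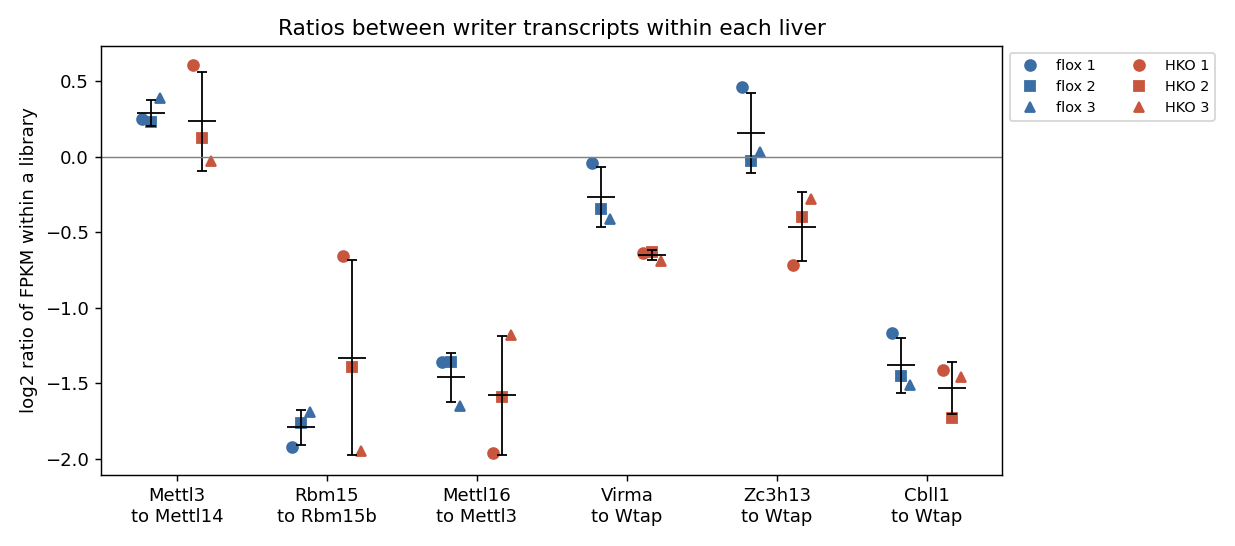
Log2 ratio of FPKM between pairs of writer transcripts within each library (y axis), flox in blue and HKO in red, with the mean and SD of each group (n = 3) as ticks and bars. HKO livers lie below flox livers in Virma to Wtap and Zc3h13 to Wtap, and the groups overlap in the other 4 ratios.

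The coefficient of variation was higher in HKO for 7 of 9 members (77.8%), beside 60.0% of all tested genes. In flox it was 1.74% to 3.09% for Virma, Rbm15, Mettl16, Cbll1 and Mettl14, under what counting alone gives at their read numbers (5.54% for Virma and 7.25% for Mettl16, for example). In HKO it was 12.0% for Virma, 16.1% for Mettl14, 16.2% for Rbm15, 19.6% for Mettl16 and 20% for Cbll1. The chi-square of HKO reads against equal levels was 12.2 per degree of freedom for Rbm15b, 8.82 for Rbm15 and 6.13 for Mettl16, where counting error alone gives about 1 on average, and 0.857 for Mettl3 and 1.01 for Zc3h13. Wtap, Mettl3 and Zc3h13 went the other way, at 8.41, 1.47 and 1.10 in flox and 5.06, 0.857 and 1.01 in HKO. Apart from that of Wtap, the flox values were 0.095 to 1.47. HKO library 1 held the lowest value of the 6 for 4 members and the highest for 3. Over all tested genes it held the lowest value in 29.3% and the highest in 27.6%.

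The summed FPKM of the 9 members was 22.8, 22.9 and 24.1 in flox and 20.9, 20.2 and 21.4 in HKO, so the groups did not overlap. When each library was scaled to the sum of its recovered reads instead, the sums were 21.7, 21.2 and 25.9 in flox and 21.3, 21.8 and 21.5 in HKO and overlapped. As TPM, which scales each library to 1 total, they were 45.9, 43.7 and 52.4 in flox and 45.7, 44.4 and 43.8 in HKO. Whether the groups overlapped in this sum thus depended on the scaling.

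**Figure D4:**
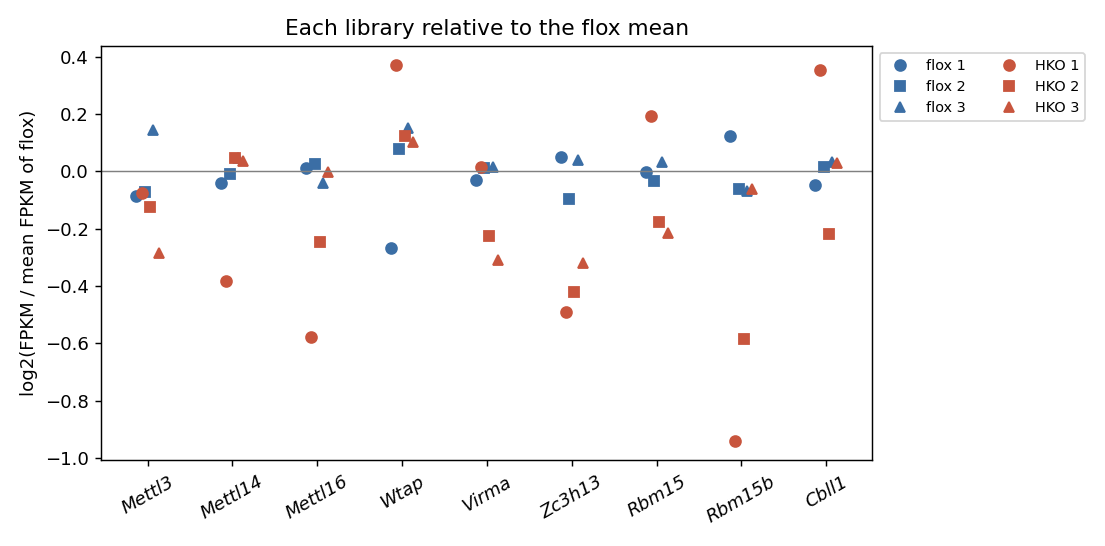
Log2 of each library's FPKM over the flox mean of the same transcript (y axis) for the 9 writer transcripts, flox in blue and HKO in red. HKO library 1 (red circles) is the lowest of the 6 for 4 transcripts and the highest for 3, with its lowest point in Rbm15b.

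By the mean of deposited FPKM pooled over all 6 livers the order was Wtap (3.86), Zc3h13 (3.48), Rbm15b (3.21), Mettl3 (2.85), Virma (2.80), Mettl14 (2.38), Cbll1 (1.41), Rbm15 (1.06) and Mettl16 (1.0). The top of this order differed by group, with Zc3h13 (3.97) and Rbm15b (3.74) above Wtap (3.59) in the flox means and Wtap (4.14) above Zc3h13 (2.99) and Rbm15b (2.67) in the HKO means. Neighbours in this order were compared within libraries by an exact sign-flip permutation test, BH adjusted over 8 pairs. With 6 libraries the smallest exact p is 0.0312. For an adjusted p under 0.05, more than 5 of the 8 pairs had to be in order in all 6 libraries, and 2 were. Mettl14 above Cbll1 (mean log2 ratio 0.76) and Cbll1 above Rbm15 (0.41) held in 6 of 6 libraries, with an exact p of 0.0312 and an adjusted p of 0.125. Mettl3 above Virma held in 3 of 6 (exact permutation p = 0.5), and the other 5 pairs in 3 to 5 of 6.

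This order rests on the gene lengths by which the submitters divided. The deposited length of Rbm15 is 20011 bases, against 7423 for the union of its exons in GENCODE M21 and 4343 for its longest coding transcript. Per those lengths its mean was 2.85 and 4.88 in place of 1.06, and its rank 3 in both in place of 8. Mettl14 went the other way, from 2.38 at the deposited 2625 bases to 0.843 at 7419 and 0.869 at 7197 bases. Rbm15b, with 3016 bases deposited and 6511 in GENCODE, went from 3.21 to 1.49. By the mean pooled over both groups Wtap ranked highest under all 3 lengths. Reads were counted on the deposited models, so the other lengths only show how far a level between genes can move. Length also bears on the test, since the pseudocount and the filter act on FPKM, and Mettl14 and Mettl16 would fall under the filter per either GENCODE length.

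**Figure D5:**
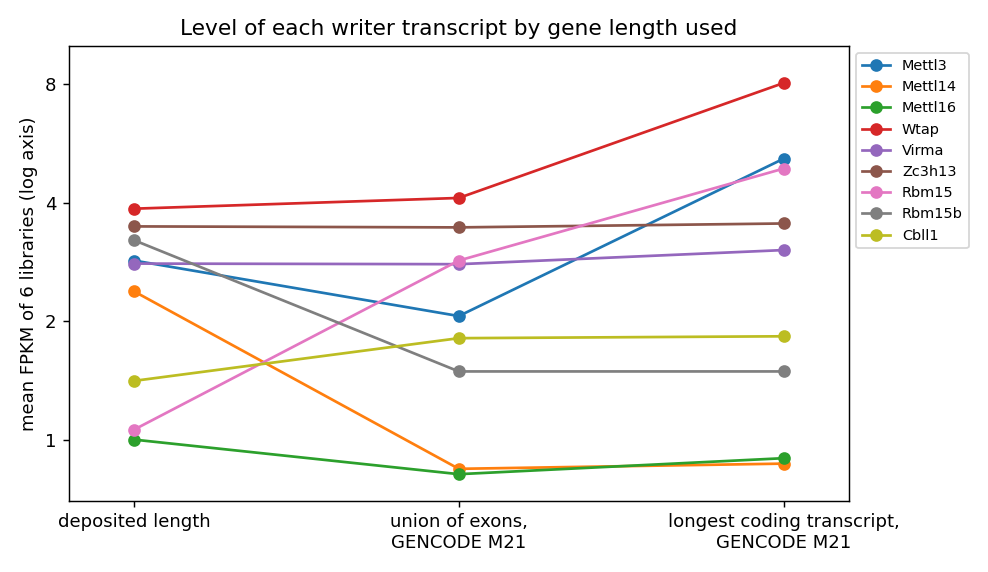
Mean FPKM of the 6 libraries for each writer transcript (y axis, log scale) with the deposited gene length, the union of exons and the longest coding transcript in GENCODE M21. By this mean, pooled over both groups, Wtap is highest in all 3, Rbm15 moves from 1.06 to 4.88 and Mettl14 from 2.38 to 0.869.

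Each of 3 core subunits was compared with the protein-coding genes of at least 5 FPKM (5625 genes). Profiles were log2(FPKM + 1) over the 6 livers, centred on each gene. The genes nearest by root mean square difference were listed. For Mettl3 these were Stx16 (0.0284), Dhx32 (0.0396) and Gtf2f2 (0.0430), against a median of 0.237 for the pool. For Mettl14 they were Brd7 (0.0243), Dpp7 (0.0266) and Gucd1 (0.0300), each of which also had its lowest value in HKO library 1. For Wtap they were Myo6 (0.0334), Glud1 (0.0374) and Tial1 (0.0437), each lowest in flox library 1 and highest in HKO library 1. The members' own spread on this scale (root mean square) was 0.0929 for Mettl3, 0.104 for Mettl14 and 0.147 for Wtap. The pseudocount shrinks changes of the low writer transcripts more than those of highly expressed genes, so near profiles can differ in fold change. These are descriptions over 6 points, and no test was made.

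Of the genes that remove, read or surround the mark, Alkbh5 passed and no other did (limma, BH adjustment over all tested genes). The other demethylase Fto had 8.06, 6.91 and 7.17 FPKM in the flox livers against 7.82, 8.29 and 7.19 (log2 0.07). Of 7 tested readers 3 were higher and 4 lower, 0 called. The reader Ythdf2, which speeds decay of marked RNA, had 5.74, 5.93 and 5.31 FPKM in the flox livers against 4.21, 3.60 and 4.45 (log2 -0.39, limma BH adjusted p = 0.18), and Fmr1 had a log2 value of 0.39 (limma BH adjusted p = 0.263). The groups did not overlap in either gene, nor in Hnrnpa2b1 (73.1, 82.9 and 81.9 FPKM in flox against 90.0, 85.9 and 85.7 in HKO). Of the 7 readers 1 thus lay all below and 2 all above flox, beside 12.6% and 12.8% of tested genes.

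Of 11 tested RNA methyltransferases outside the set 4 were higher and 7 lower, 0 called. Trmt61a, which methylates adenosine in transfer RNA, had 4.33, 3.70 and 2.71 FPKM in the flox livers against 1.05, 1.77 and 1.92 (log2 -0.83, limma BH adjusted p = 0.106), a larger difference than any writer member showed. Mettl5, which places m6A on ribosomal RNA, had a log2 value of 0.33 (limma BH adjusted p = 0.302). Of 9 tested partners of the writers 4 were higher and 5 lower, 0 called, with Smad3 at 0.34 and Cebpz, a factor that brings METTL3 to chromatin, at -0.46. Of 5 exon junction complex genes, whose proteins keep m6A away from splice junctions, 2 were higher and 3 lower, 0 called. The largest changes were Magohb at 0.25 and Rbm8a at -0.42, and the groups overlapped in both. Of these 5 genes 2 lay all below flox (Eif4a3 and Casc3) and 0 all above. Of the 11 methyltransferases 2 lay all below and 1 all above, and of the 9 partners also 2 and 1. Among all tested genes the shares were 12.6% and 12.8%.

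Genes that make and use the methyl donor were 5 higher and 6 lower of 11 tested, 0 called. Mat1a, the main hepatocyte synthetase, was at 995 ± 291 FPKM in flox and 767 ± 120 in HKO (SD, n = 3, log2 -0.34, limma BH adjusted p = 0.519). Mat2b, the regulatory subunit of the MAT2A enzyme, had 13.3, 12.9 and 13.3 FPKM in the flox livers against 19.9, 17.7 and 17.7 (log2 0.45, limma BH adjusted p = 0.127), with all HKO livers above all flox livers. Of the 11 genes 2 lay all above and 1 all below flox, beside 12.8% and 12.6% of tested genes.

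The letters GGACT, a common core of the sequence that METTL3 methylates, were counted on the transcript strand of the longest coding transcript of each writer gene in GENCODE M21. All 9 held it, from 2 times in Rbm15 (0.461 per kilobase) to 14 times in Mettl16 (1.11 per kilobase). Mettl3 had the densest at 1.98 per kilobase and Wtap had 1.88, above the upper quartile of 1.53 over 9134 tested protein-coding genes, whose median was 1.05. Zc3h13 had 1.14 per kilobase. A match does not show that a transcript carries the mark, which was not measured in these libraries.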

How the data were processed

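RNA sequencing libraries of 6 livers (3 flox, 3 HKO) were analysed from the deposited FPKM table. Poly(A) RNA was captured and read from both ends, per the labels' protocols. Per the series text and the submitters' processing notes, the authors aligned to GRCm38.p6 with HISAT2 2.0.5 and counted with featureCounts 1.5.0-p3, and CASAVA and DESeq2 1.20.0 are also named. Annotation, strand setting and treatment of multi-mapped reads were not given in the sources used here. Deposited FPKM times gene length were whole multiples of 1 step in each library (100% of values, tolerance 0.001), which gave reads. The library size implied by the FPKM ran from 0.925 to 1.08 of summed reads, and median-of-ratios factors of the FPKM were 1.01 in every library.

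The 10453 genes averaging 1 FPKM or more were tested with limma 3.58.1 (R 4.3.3, trend and robust eBayes) on log2(FPKM + 1), with no covariate, two-sided, with BH adjustment at 0.05 over all tested genes. The script was tested on simulated reads. Alternatives were pseudocounts of 0.1 and 5, no filter or a mean of at least 5, median-of-ratios, quantile and TPM scaling, plain eBayes, a block for replicate number, omission of each library, and voom on reads. Scaling to the sum of reads and GENCODE lengths were added after the data were seen. Named beside the 9 members were Alkbh5, called genes of 6 related lists or otherwise the largest change in each direction, Mat1a and Mat2a, and nearest profiles. Members and lists were chosen with earlier results of these data known. Protein sequences were not used here.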

Additional observations from a re-analysis of the deposited data

How the results depend on the processing

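In 17 alternatives 0 writer members were called by limma, with 0 to 2 of them at an unadjusted p under 0.05. A filter at a mean FPKM of 5 leaves no member. Of 149 member values 143 kept their sign and 6 reversed, all near 0: Rbm15 with TPM (0.0102), on the sum of reads by limma (0.00593) and voom (0.00965), and Rbm15 (-0.0983 to 0.00700), Mettl14 (-0.118 to 0.0297) and Cbll1 (-0.0524 to 0.116) with a library left out. Mettl16 falls under the filter in 4 of those fits. The members' median moved to -0.0432 with a pseudocount of 5, -0.0681 with TPM and -0.0622 on the sum of reads by limma. The median over all tested genes moved as well, from -0.0153 to -0.00863, 0.0516 and 0.0454 in the same settings. With a library left out the members' median was -0.118 to -0.0551. Of 42 ratio values 2 reversed, Mettl3 to Mettl14 (-0.241 to 0.0739) and Mettl16 to Mettl3 (-0.317 to 0.0749) with a library left out. Calls over all genes went from 51 to 1 with no filter (2514 at an unadjusted p under 0.05), 9 with the replicate block, 120 by voom on the sum of reads (78 higher and 42 lower, beside 28 and 23) and 1 to 70 with a library left out. The replicate block left every member uncalled. The sources used here do not say whether libraries with equal replicate numbers are paired. Their correlations of deviations were 0.153, -0.145 and -0.0514, beside -0.157 to 0.248 for unequal numbers. With 3 libraries per group these values cannot settle whether a pairing exists. Counts of 79 to 494 reads per member limit precision.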
